A study of Populus ussuriensis with 12 samples.

Results

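In poplar roots 42 of 39602 listed genes were at least 4 times lower on excess Zn than on control medium in both genotypes studied, and the levels of these 42 genes are described here. They were chosen from the measured values by 3 criteria. The mean over all 12 libraries had to be at least 2 CPM, a unit that divides counts by the library's scaled total, the ratio of control to Zn group means, on CPM + 0.5, at least 4 in each genotype, and all 6 Zn libraries had to lie below all 6 control libraries. The levels on Zn and on control medium were thus used in the choice, in all 12 libraries, and are given as a description with no test. The comparison of the genotypes within a medium was not a criterion and is tested further on. The rule drew on the same libraries, however, and can limit how far the genotypes lie apart in a member.

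Messenger RNA of roots was sequenced from *Populus ussuriensis*, a northeast Asian poplar grown in vitro to an age of 21 days. The groups were PuHSFA4a-OE on Zn, PuHSFA4a-OE on control medium, WT on Zn and WT on control medium, each with 3 libraries. OE stands for overexpression of PuHSFA4a and WT for the wild type. Per the labels' protocols, plants spent 1 week without added stress and then 2 weeks with 1.2 mM ZnSO4, a text that stands on the control samples too and was taken to describe the Zn groups only. The labels give neither the promoter of the transgene nor the number of transgenic lines. Whether replicate libraries stem from different plants is not stated either, so the p-values refer to the spread among the sequenced libraries alone, which may be technical.

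Zn is an essential cofactor of many enzymes and transcription factors, and in excess it disturbs the uptake of other metals, iron above all, and slows root growth. Plants hold Zn in bounds by lowering uptake transporters, by binding Zn to chelators such as nicotianamine and phytochelatins, and by moving it into vacuoles. Class A heat shock transcription factors activate genes under heat and other stress, and in wheat and rice the A4a factors are tied to cadmium tolerance. The genes below carry *Populus trichocarpa* IDs of annotation v3.0. The files pair these IDs with no name or description, so no function is given for a member.

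Total counts per library were 15594001 to 21206585, and 3 counts, the floor used for counting error, corresponded to 0.142 to 0.188 CPM. Which locus takes the transgene reads is not stated in the files, so the OE label was not checked by name, and the tissue label could not be checked against markers. At Potri.011G071700.v3.0 (6828550 to 6830854 on the minus strand of chromosome 11), singled out after its values were seen, all 6 OE libraries had 238 to 347 CPM and lay above the 6 WT libraries. There the libraries labelled WT control 1 and 2 had 129 and 165 CPM, against 37.1 CPM in WT control 3 and 32.5 to 33.2 CPM in the 3 WT Zn libraries. The number of genes that meet the rule and the medians over the members for OE against WT are therefore also given without WT control 1 and 2. That leaves WT control 3 as the only WT control library, so such values rest on it. The share of these libraries' difference at that locus in the results below was not tested.

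Of 21908 genes that averaged 2 CPM or more, 56 passed the ratio of 4 in OE and 99 in WT. Both held for 44 genes, which were 78.6% of the OE genes and 44.4% of the WT genes. In 42 of the 44 the Zn and control libraries did not overlap. The mirrored rule, for genes higher on Zn, held for 61 genes. In the fit across all genes, 41 of the 42 members were called lower on Zn in OE, where 8.54% of the 25871 tested genes were, and 42 of 42 in WT, where 14.5% were (edgeR quasi-likelihood test with Benjamini-Hochberg adjustment). The exception in OE was Potri.001G176200.v3.0, with an adjusted p of 0.0651. All Zn libraries lay below all control libraries in 9.47% of tested genes. The choice of the members fixes these counts, and nothing is read from them.

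The ratio of control to Zn ran from 4.07 to 26.6 in OE, with a median of 5.18, and from 4.0 to 16.4 in WT, with a median of 6.36. It was at least 10 in both genotypes for 4 members and under 5 in at least one genotype for 20. The added 0.5 CPM lowers the ratio of weakly expressed genes. Mean levels over 6 libraries were 0.0447 to 199 CPM on Zn (median 1.44) and 4.08 to 923 CPM on control medium (median 12.6, against 14.5 for all tested genes). On Zn 15 members were under 1 CPM and 9 were at 10 CPM or more. On control medium 17 members were under 10 CPM and 10 were at 50 CPM or more. In bulk roots, fewer cells of a type and less RNA per cell cannot be told apart.

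**Figure D1:**
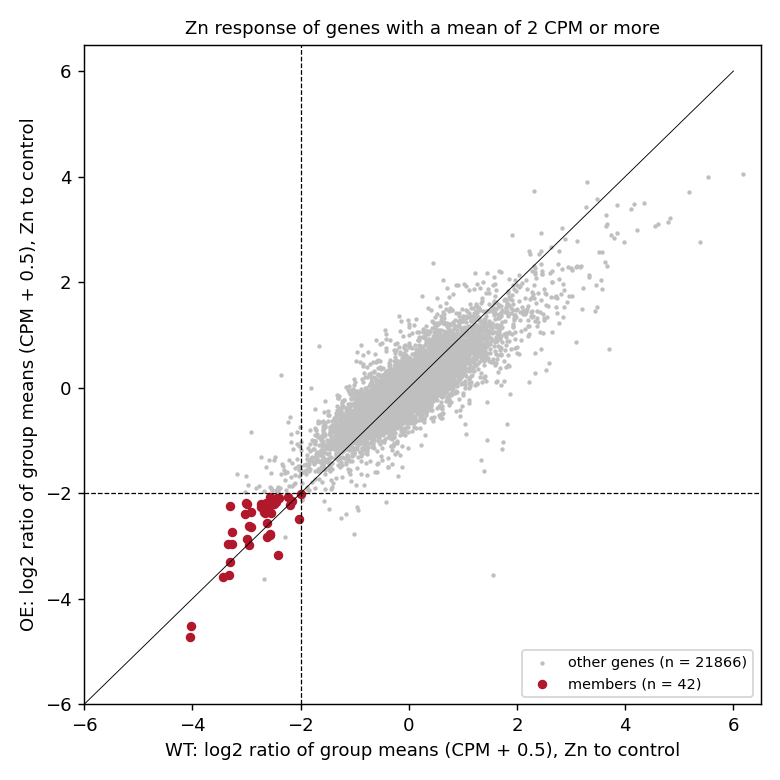
Log2 ratio of Zn to control group means (CPM + 0.5) in OE and in WT, 1 point a gene, for the genes that averaged 2 CPM or more. The 42 members lie where both ratios are at or below the value that corresponds to 4-fold lower on Zn, as the rule requires, and the rest of the genes centre near 0.

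**Figure D2:**
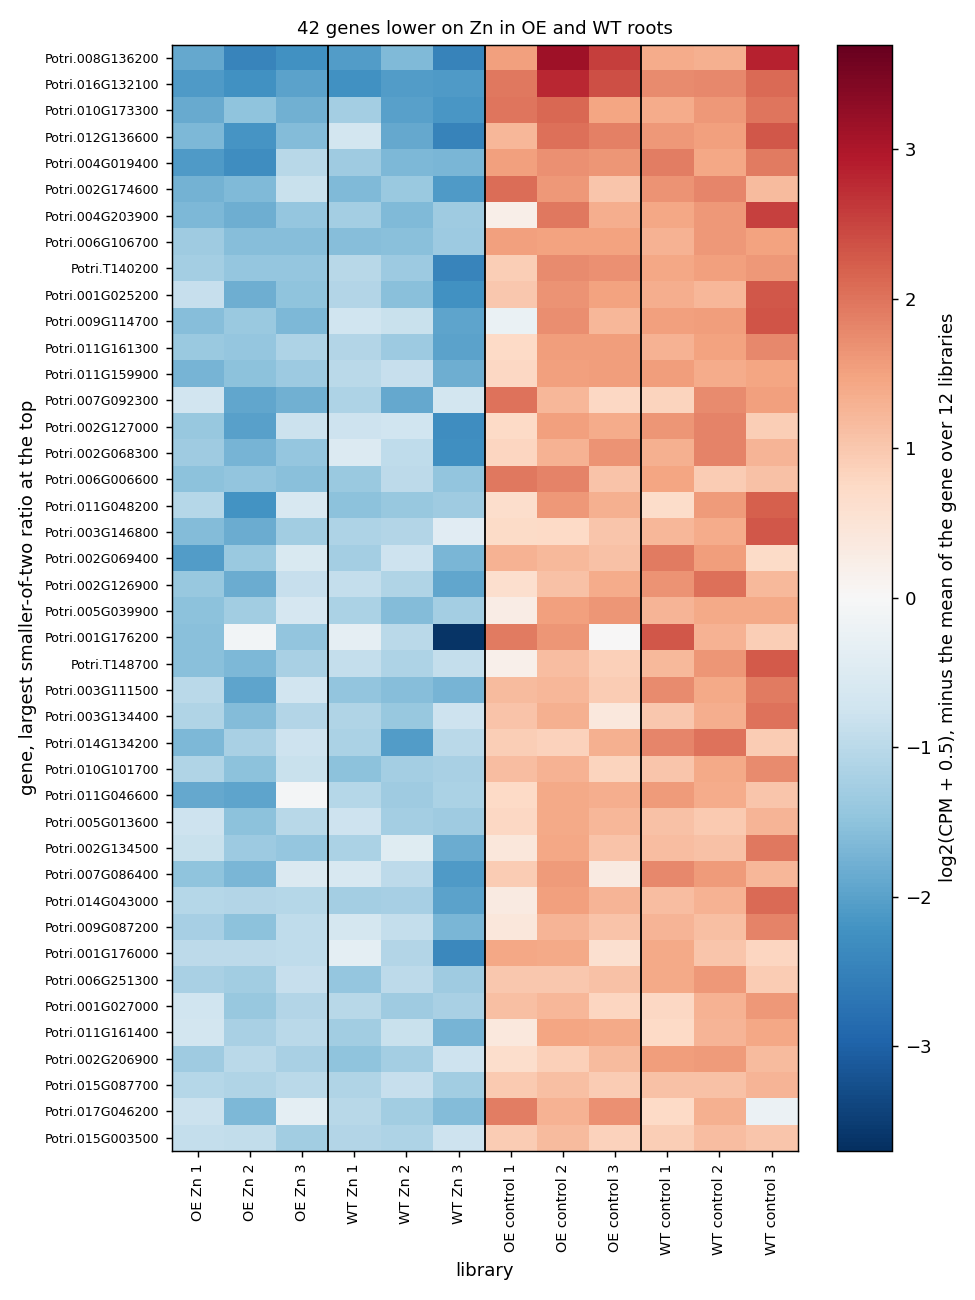
Log2(CPM + 0.5) of each member (rows) in each of the 12 libraries (columns, Zn before control and OE before WT), as the difference from the member's mean over the 12 libraries. Each member is lower in the 6 Zn libraries than in the 6 control libraries, which the rule fixed, and OE control 1 is paler than the other control libraries in many rows.

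A pair of genes made up most of the signal. Potri.005G013600.v3.0 (chromosome 5, 1062080 to 1342689, plus strand) had 246, 147 and 207 CPM in the OE Zn libraries, against 718, 1112 and 981 CPM in the OE control libraries. The WT libraries of this gene had 248, 176 and 169 CPM on Zn, against 894, 818 and 1015 CPM on control medium. The group means of the genotypes were close in each medium, and the ratio of control to Zn was 4.68 in OE and 4.60 in WT. Potri.009G114700.v3.0 (chromosome 9, 9718245 to 9722548, plus strand) had 102, 119 and 96.1 CPM in the OE Zn libraries, against 261, 1009 and 719 CPM in the OE control libraries. In WT it had 184, 174 and 79.1 CPM on Zn, against 882, 906 and 1540 CPM on control medium. Its lowest control library, OE control 1, was only 1.42 times its highest Zn library, WT Zn 1. Per length, Potri.009G114700.v3.0 had the highest level of the members on control medium, with a mean of 2047 FPKM over 6 libraries, against 775 FPKM for Potri.005G013600.v3.0. Together these genes held 50.3% to 66.9% of the summed CPM of the members in a library.

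The sum over the 42 members was 543, 433 and 505 CPM in the OE Zn libraries, against 1947, 3359 and 2659 CPM in the OE control libraries. In WT it was 645, 528 and 381 CPM on Zn, against 2903, 2839 and 3941 CPM on control medium. The sum was lowest in OE control 1 among the control libraries and lowest in WT Zn 3 among the Zn libraries. The members held 0.0368% to 0.0641% of the counts of a Zn library and 0.193% to 0.397% of those of a control library.

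The other abundant members ranged from steady to uneven among libraries. Potri.015G003500.v3.0 (chromosome 15) had 29.9, 29.3 and 22.8 CPM on Zn, against 109, 127 and 102 CPM on control medium in OE, and 26.3, 25.0 and 33.0 CPM on Zn, against 105, 123 and 114 CPM on control medium in WT. Potri.015G087700.v3.0, on the same chromosome, had 20.8, 20.1 and 21.7 CPM on Zn, against 86.3, 95.8 and 85.5 CPM on control medium in OE, and 20, 24.1 and 17.8 CPM on Zn, against 94.8, 94.8 and 106 CPM on control medium in WT. These were among the 3 steadiest members, with coefficients of variation of 8.94% and 7.85% over the 6 control libraries. Potri.011G048200.v3.0 had 17.2, 7.46 and 23.7 CPM on Zn, against 57.7, 112 and 91.9 CPM on control medium in OE. Its WT libraries had 12.4, 13.5 and 14.4 CPM on Zn, against 58.9, 110 and 169 CPM on control medium. In both genotypes its control libraries differed more than 1.5-fold from the lowest to the highest. Potri.001G025200.v3.0 had 9.98 to 19.9 CPM on Zn, against 72.8 to 117 CPM on control medium in OE, and 7.29 to 16.7 CPM on Zn, against 85.0 to 182 CPM on control medium in WT. Potri.014G043000.v3.0 had 9.33 to 9.69 CPM on Zn, against 25.8 to 59.9 CPM on control medium in OE, and 4.85 to 8.40 CPM on Zn, against 45.9 to 88.6 CPM on control medium in WT.

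With 0.5 CPM added, the largest ratios in both genotypes belonged to Potri.008G136200.v3.0 and Potri.016G132100.v3.0. Potri.008G136200.v3.0 (chromosome 8, 9062110 to 9066851, minus strand) had 0.544, 0.202 and 0.309 CPM in the OE Zn libraries, against 10.5, 33.5 and 22.3 CPM in the OE control libraries. In WT its levels were 0.427, 0.73 and 0.2 CPM on Zn, against 9.43, 9.07 and 27.0 CPM on control medium. Its control libraries varied by a coefficient of 56.0%, the highest among the members, yet the lowest of them stood far above every Zn library. Its ratio of control to Zn was 26.6 in OE and 16.4 in WT. From the summed counts, with no constant added, the ratio was 63.8 in OE (exact binomial 95% interval 41.1 to 105) and 33.5 in WT (22.5 to 52.0).

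Potri.016G132100.v3.0 (chromosome 16, 13549320 to 13549830, plus strand) was close to undetected on Zn. It had 0.0544, 0 and 0.103 CPM in the OE Zn libraries, against 8.66, 15.8 and 12 CPM in the OE control libraries. In WT it had 0, 0.0608 and 0.05 CPM on Zn, against 7.41, 7.65 and 9.63 CPM on control medium. Summed over 3 libraries these levels were 3 counts on Zn, against 636 on control medium in OE, and 2 counts on Zn, against 471 on control medium in WT. The ratio of control to Zn without an added constant was 234 in OE (exact binomial 95% interval 79.6 to 1135) and 235 in WT (64.6 to 1943). Such intervals cover counting error only. These ratios were above those of Potri.008G136200.v3.0 in both genotypes, although with 0.5 CPM added they were 22.9 in OE and 16.3 in WT, below that gene's.

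Further members were near the floor on Zn. Potri.010G173300.v3.0 had 11 counts on Zn, against 411 on control medium in OE (ratio of control to Zn 41.2, interval 22.8 to 83.1), and 10 counts on Zn, against 379 on control medium in WT (37.8, 20.3 to 79.4). Potri.006G106700.v3.0 had 5 counts on Zn, against 216 on control medium in OE (47.6, 20.1 to 148), and 5 counts on Zn, against 232 on control medium in WT (46.2, 19.5 to 144). Potri.004G203900.v3.0 had 4 counts on Zn, against 206 on control medium in OE (56.7, 21.8 to 210.0), and 10 counts on Zn, against 350 on control medium in WT (34.9, 18.7 to 73.4). In each of these 3 genes the intervals of OE and WT overlapped. They cover counting error only and are for the ratio used in the choice, so nothing is read from this overlap. A count of 0 occurred 6 times in the Zn libraries, in 5 members, and in no control library.

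The rest of the members with the largest ratios kept a measurable level on Zn. Potri.012G136600.v3.0 had 1.97 to 3.14 CPM on Zn, against 25.8 to 45 CPM on control medium in OE, and 1.5 to 6.45 CPM on Zn, against 31.3 to 54.1 CPM on control medium in WT. Potri.004G019400.v3.0 had 0.454 to 1.8 CPM on Zn, against 13.0 to 14.5 CPM on control medium in OE, and 0.949 to 1.38 CPM on Zn, against 12 to 17.1 CPM on control medium in WT. The ratio of control to Zn was 9.85 in OE and 9.94 in WT for Potri.004G019400.v3.0, 7.79 in OE and 9.59 in WT for Potri.002G174600.v3.0, and 7.35 in OE and 7.98 in WT for Potri.T140200.v3.0, which lies on scaffold 331.

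**Figure D3:**
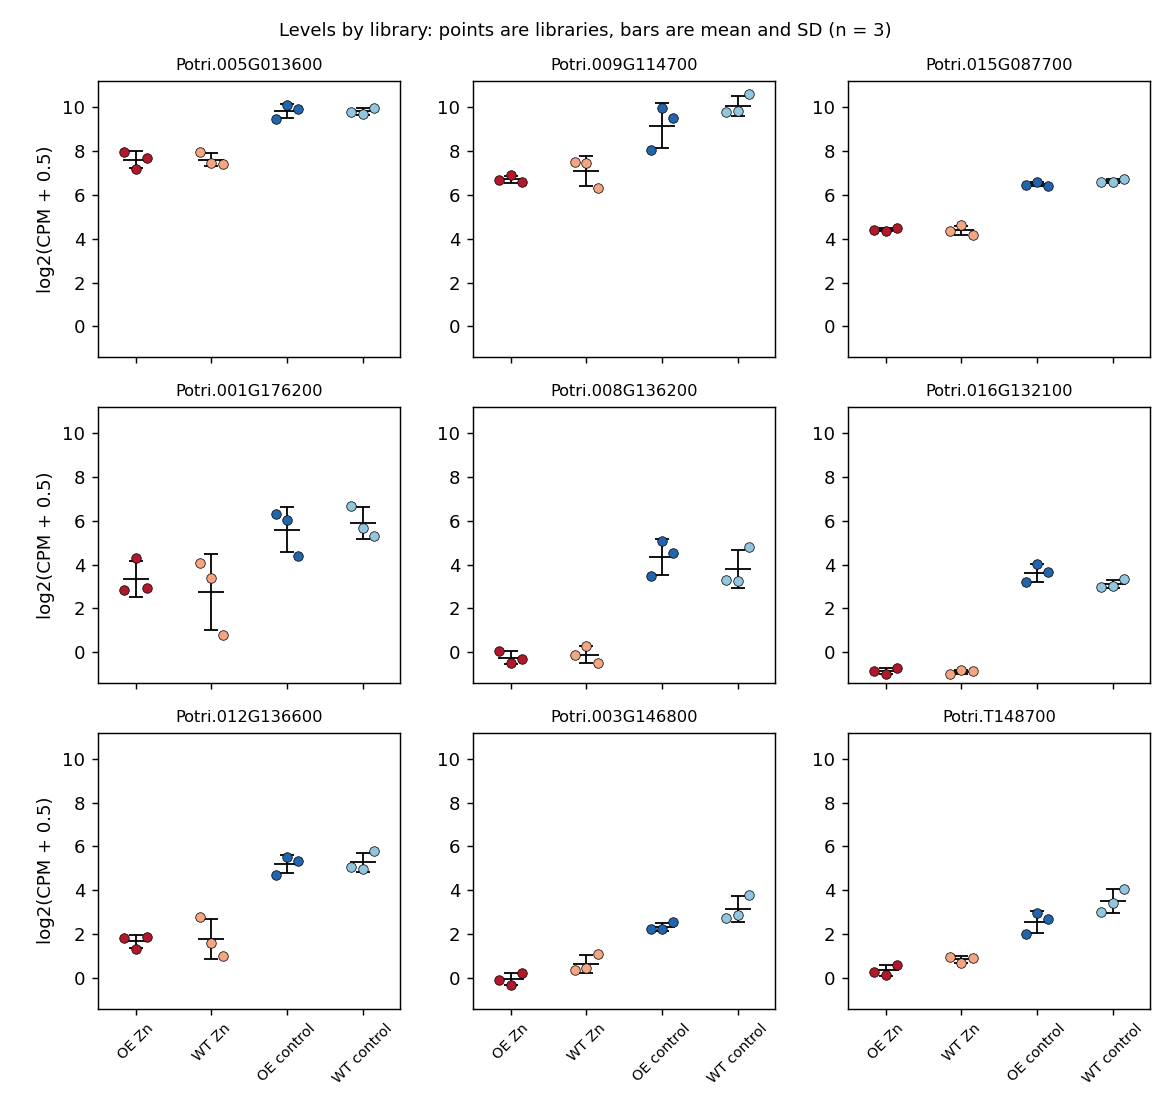
Log2(CPM + 0.5) of 9 members named in the text, 1 point a library, in OE Zn, WT Zn, OE control and WT control, with bars for the mean and SD (n = 3). Potri.016G132100.v3.0, like Potri.008G136200.v3.0, lies under 1 CPM in every Zn library, and Potri.005G013600.v3.0 lies at 147 CPM or more there.

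At the edge of the rule the ratios lay close together. Just inside were Potri.015G003500.v3.0 with 4.07 in OE and 4.0 in WT, Potri.017G046200.v3.0 with 5.62 in OE and 4.07 in WT, and Potri.015G087700.v3.0 with 4.19 in OE and 4.68 in WT. Just outside were Potri.011G048100.v3.0 with 3.94 in OE and 8.19 in WT, Potri.008G187100.v3.0 with 4.33 in OE and 3.91 in WT, and Potri.002G020700.v3.0 with 4.22 in OE and 3.91 in WT. In Potri.005G029800.v3.0 and Potri.012G052400.v3.0 both ratios were large enough but the media overlapped. Potri.005G029800.v3.0 had 2.28 CPM in its highest Zn library, WT Zn 1, and 0.58 CPM in its lowest control library, WT control 3. Within the members, the lowest control library was 1.08 to 71.9 times the highest Zn library, with a median of 3.25. The narrowest gaps belonged to Potri.001G176200.v3.0 at 1.08 and Potri.017G046200.v3.0 at 1.13.

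The median member varied more between libraries of 1 group than the median tested gene did. The tested genes were not matched to the members by level. On Zn 15 members were under 1 CPM, and the share of counting error in their spread was not tested. The median SD of log2(CPM + 0.5) within a group was 0.29 in OE Zn, 0.43 in OE control, 0.40 in WT Zn and 0.36 in WT control, against 0.14 to 0.15 over all tested genes. OE control 1 was the lowest of the 6 control libraries in 21 of the 42 members (50%, against 21.4% of tested genes), and the median member lay 0.50 lower there on the log2 scale than in the other 5 control libraries. WT control 3 was the highest control library in 17 members (40.5%, against 23.5%). On Zn, OE Zn 2 was the lowest library in 13 members (31.0%, against 17.4%) and WT Zn 3 in 20 (47.6%, against 24.0%). The members therefore shared part of their spread among replicates. Leaving out 1 library at a time gave 35 genes that met the rule without OE control 2, the lowest number, and 53 without OE control 1, the highest, 40 of them shared with the 42. The number was 42 without WT control 3, 40 without OE Zn 2 and 41 without WT Zn 3. Without WT control 1 and 2, which leaves WT control 3 as the only WT control library, the rule gave 37 genes, 35 of them shared.

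**Figure D4:**
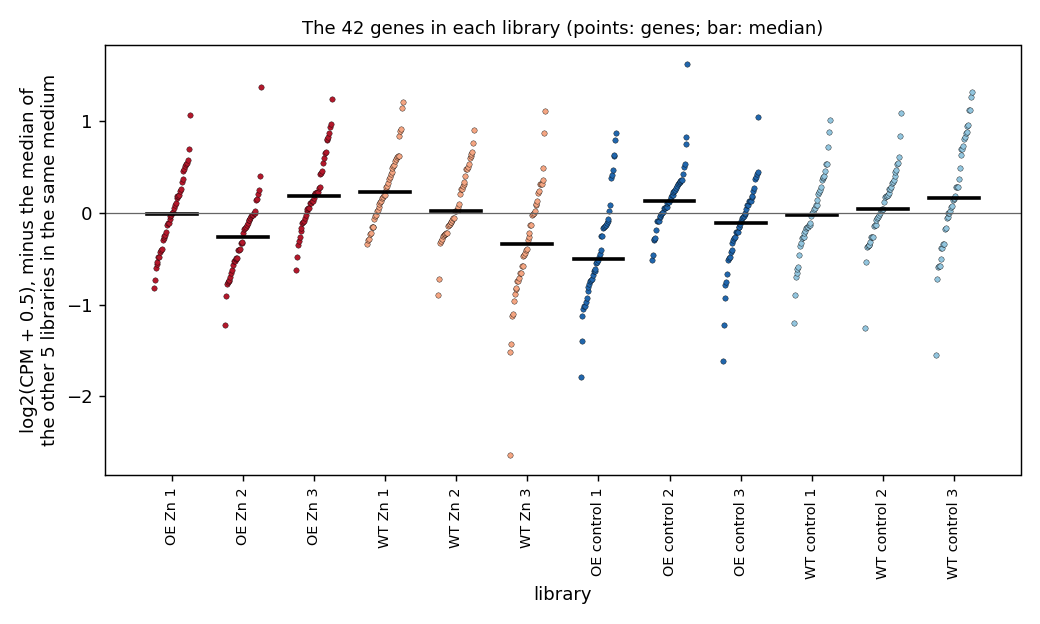
Deviation of each member's log2(CPM + 0.5) in a library from its median over the other 5 libraries of the same medium, 1 point a member, with the median of the members marked. The members' median is lowest in OE control 1, at -0.50, and in WT Zn 3, at -0.34.

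The members were short and scattered over the genome. Their median length was 1392 bases, against 1838 bases for tested genes, and 37 of 42 were shorter than that median. They lay on the plus strand in 21 cases and on the minus strand in 21. Chromosome 2 held 7 members of its 1858 tested genes, chromosome 11 held 5 of 950 and chromosome 1 held 4 of 3015, while chromosomes 13, 18 and 19 held none. None of the 223 genes that the files name as new was a member. Coordinates are those of the files, whose genome build is not given in the sources used here.

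In 3 places a pair of members lay within 50 kb on the same strand. Potri.011G161300.v3.0 and Potri.011G161400.v3.0 were next to each other, 12.1 kb apart. The first had 1.36 to 1.75 CPM on Zn, against 7.73 to 14.1 CPM on control medium in OE, and 0.749 to 1.85 CPM on Zn, against 11.6 to 16.5 CPM on control medium in WT. The other had 1.26 to 2.07 CPM on Zn, against 4.8 to 10.7 CPM on control medium in OE, and 0.749 to 1.83 CPM on Zn, against 6.31 to 10.5 CPM on control medium in WT. Both genes were lowest in OE control 1 among the control libraries and in WT Zn 3 among the Zn libraries. Potri.002G126900.v3.0 and Potri.002G127000.v3.0 were 5.12 kb apart. Their ratios of control to Zn were 5.15 and 5.91 in OE, and 7.52 and 6.18 in WT, against 0.835 to 1.24 in OE and 0.833 to 1.45 in WT for the 2 genes on either side. The rule required ratios of at least 4 in the pair, so nothing is read from its difference from the genes on either side.

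Potri.001G176000.v3.0 and Potri.001G176200.v3.0 lay 16.5 kb apart with 1 gene between them. Potri.001G176000.v3.0 had 33.2, 33.2 and 33.8 CPM in the OE Zn libraries, against 178, 171 and 99.3 CPM in the OE control libraries. In WT it had 50.3, 30.5 and 12 CPM on Zn, against 174, 133 and 114 CPM on control medium. The gene between, Potri.001G176100.v3.0, had ratios of 2.30 in OE and 3.08 in WT, and Potri.001G175800.v3.0, upstream, had 2.06 in OE and 3.02 in WT, with no overlap of the media in either gene. All Zn libraries lay below all control libraries in 9.47% of tested genes. The next gene upstream, Potri.001G175700.v3.0, went the other way, with ratios of 0.657 in OE and 0.519 in WT and overlapping media. Downstream, Potri.001G176300.v3.0 and Potri.001G176400.v3.0 had 0 CPM in each group. Lower levels on Zn at this place thus included Potri.001G176100.v3.0 and Potri.001G175800.v3.0 but not Potri.001G175700.v3.0. Potri.011G048100.v3.0, just outside the rule, also lay next to a member, Potri.011G048200.v3.0, at a distance of 9015 bases.

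For 6 members the listed locus overlapped that of another gene. Potri.005G013600.v3.0 spans 280610 bases, although its length is given as 1584 bases, and 28 other listed genes lie in that span, 10 of them averaging 2 CPM or more. Potri.006G006600.v3.0 shares bases with Potri.006G006700.v3.0 (64.3 CPM on average) and Potri.017G046200.v3.0 with Potri.017G045500.v3.0 (30.9 CPM on average), each on the same strand. For the counting mode and strand setting, not given in the sources used here, nothing could be checked, so reads could be divided between such genes in a way these values do not show, and the same holds for near-identical copies.

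The genotypes were compared within each medium, which asks whether overexpression moved the level of the members. This comparison was not a criterion of the rule, but the same libraries were, so the members' genotype differences are not independent of the choice. On control medium no member differed by the edgeR test, and none of the 25871 tested genes did (0.0%). The smallest adjusted p among members was 0.441. At an unadjusted p under 0.05 there were 5 members (11.9%, against 8.87% of tested genes), and neither DESeq2 (0.321% of tested genes called) nor limma-voom called a member. The fitted log2 fold change, OE against WT, was below 0 in 32 of 42 members (76.2%, against 50.7% of tested genes). Its median was -0.21, with a range of -1.02 to 0.98 and a median SE of 0.32. The median was -0.133 without OE control 1, with 27 of 42 below 0, and -0.095 without WT control 3, with 28 below 0. It was -0.302 without OE control 2, with 34 below 0, and -0.265 without OE control 3, with 30 below 0. Without WT control 1 and 2, with WT control 3 as the only WT control library, it was -0.175, with 29 below 0. The median thus stayed below 0 without each of these libraries, and its size depended on which was left out.

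The 3 OE control libraries lay below the 3 WT control libraries in 4 members (7.51% of tested genes) and above them in none (7.18%). These 4 were Potri.002G206900.v3.0, Potri.003G111500.v3.0, Potri.003G146800.v3.0 and Potri.T148700.v3.0. Potri.003G111500.v3.0 (chromosome 3, 13504736 to 13508815, plus strand) had 61.3, 64.5 and 52.5 CPM in the OE control libraries, against 93.3, 73.3 and 105 CPM in the WT control libraries. On Zn it had 13.4, 6.61 and 16.5 CPM in OE, against 9.48, 8.82 and 7.84 CPM in WT, and the genotypes overlapped. Its log2 fold change on control medium was -0.60 (SE 0.24), which did not pass (edgeR adjusted p = 0.512). Potri.002G206900.v3.0 had 2.93, 3.56 and 4.46 CPM in the OE control libraries, against 5.87, 6.03 and 4.47 CPM in the WT control libraries.

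On Zn the members were spread evenly about 0. The log2 fold change, OE against WT, was below 0 in 19 members (45.2%, against 50.5% of tested genes) and above it in 23. It had a median of 0.02, a range of -1.23 to 0.66 and a median SE of 0.45. Leaving out 1 library at a time moved the median between -0.114 and 0.145. No member was called by edgeR (0.0% of tested genes), DESeq2 (0.247%) or limma-voom, the smallest edgeR adjusted p was 0.648, and 1 member (2.38%, against 7.13% of tested genes) had an unadjusted p under 0.05. All OE Zn libraries lay below all WT Zn libraries in 2 members (6.93% of tested genes) and above them in 1, Potri.014G043000.v3.0 (5.92%). With SEs of this size, moderate differences between the genotypes could not be seen at such levels, and a missed threshold does not show that the genotypes were alike.

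Averaged over both media, the log2 fold change was below 0 in 29 of 42 members (69.0%, against 50.5% of tested genes), with a median of -0.05. Leaving out 1 library at a time moved the median between -0.160 without OE Zn 3 and -0.032 without OE Zn 2, and it was -0.142 without WT control 1 and 2. No member was called by edgeR, against 6 genes of all tested (0.0232%), and 3 members had an unadjusted p under 0.05 (7.14%, against 9.27%). DESeq2 called 1 member, with 0.715% of tested genes called, and limma-voom called none. This member was Potri.003G146800.v3.0 (chromosome 3, 16232280 to 16235019, minus strand). It had 4.14, 4.22 and 5.33 CPM in the OE control libraries, against 6.26, 6.84 and 13.5 CPM in the WT control libraries. On Zn it had 0.435, 0.303 and 0.67 CPM in OE, against 0.806, 0.852 and 1.65 CPM in WT. The OE libraries were lower in both media, and in WT the third library of each medium was the highest. Its averaged log2 fold change was -1.09 (SE 0.28), with an adjusted p of 0.275 by edgeR and 0.0363 by DESeq2, and 0.0363 to 0.565 over 20 other settings. Without WT control 3 and WT Zn 3 the averaged value was -0.66 (edgeR adjusted p = 0.461). On control medium the log2 fold change was then -0.52, against -0.95 with all libraries.

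Potri.T148700.v3.0, on scaffold 498, was the other member with the genotypes apart in both media, as in 1.27% of tested genes. It had 3.48, 7.29 and 6.02 CPM in the OE control libraries, against 7.51, 10.3 and 16.4 CPM in the WT control libraries. On Zn it had 0.707, 0.605 and 1.03 CPM in OE, against 1.42, 1.10 and 1.40 CPM in WT. The averaged log2 fold change was -0.88 (SE 0.26) and did not pass (edgeR adjusted p = 0.337, and 0.0957 to 0.618 over 20 other settings). Potri.017G046200.v3.0 pointed the other way, with 10.8, 6.85 and 9.35 CPM in the OE control libraries, against 4.52, 7.04 and 2.09 CPM in the WT control libraries. Its averaged log2 fold change of 0.82 (SE 0.36) did not pass either (edgeR adjusted p = 0.518, and 0.281 to 0.781 over 20 other settings). Without WT control 1 and 2, which leaves the lowest WT control library, it was 1.39.

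**Figure D5:**
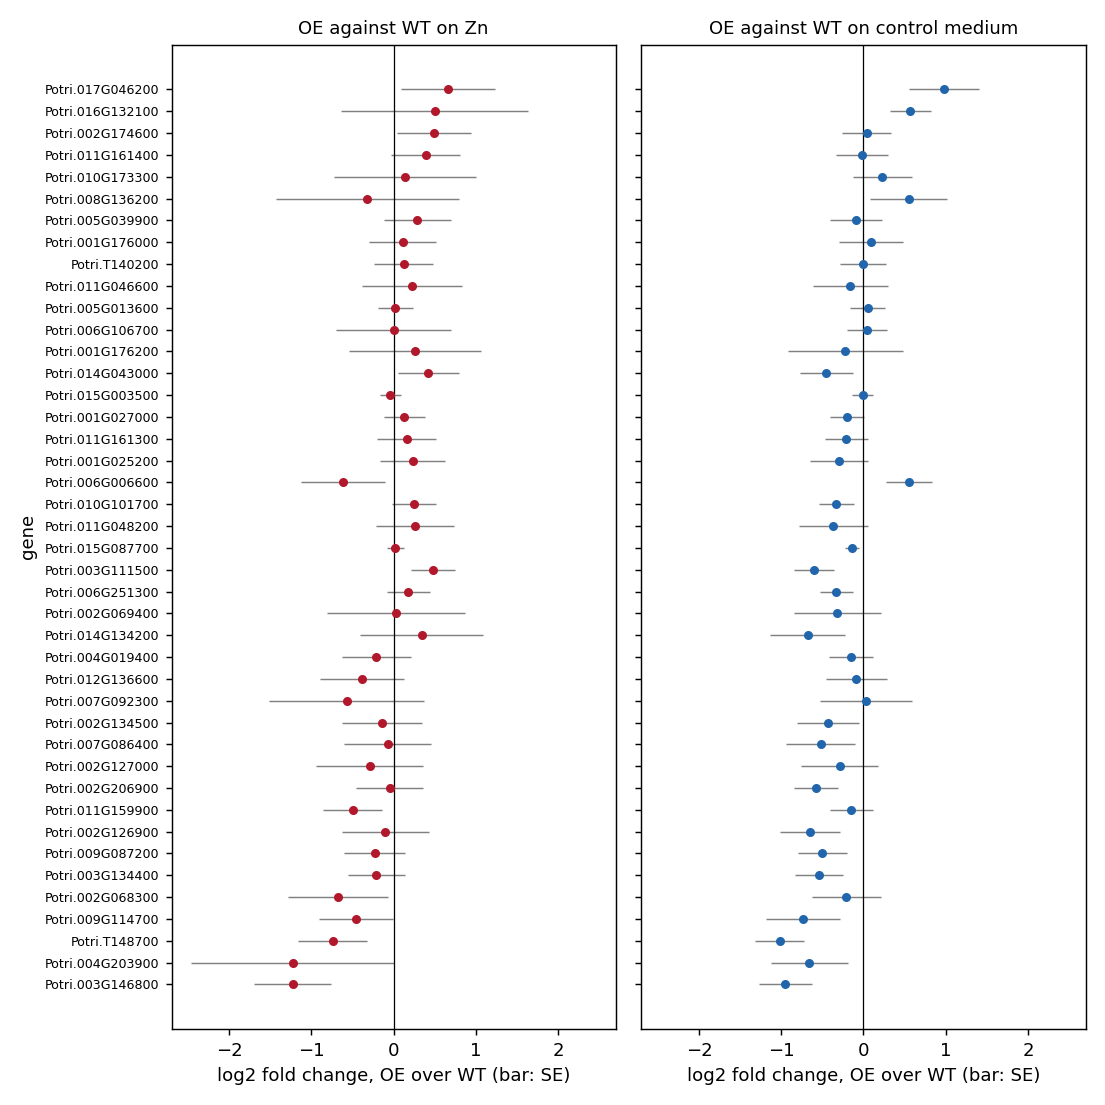
Fitted log2 fold change of OE against WT for each of the 42 members, on Zn (left) and on control medium (right), with bars for the SE. On control medium 32 of 42 values lie below 0 and on Zn 19 of 42, and no member passed the edgeR test in either medium.

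The size of the response was set side by side for the genotypes, with no test because the rule used both. With 0.5 CPM added, the ratio of control to Zn was larger in OE for 12 members and larger in WT for 30. In the fit across all genes no gene showed a called difference between the responses of OE and WT (0.0% of 25871). The fitted difference of the log2 responses, OE minus WT, had a median of 0.279 over the members, against -0.009 over all tested genes. A positive value is a smaller fall in OE. The fitted difference was below 0, a larger fall in OE, in 16 of the 42 members. That number was 10 without WT Zn 1 and 21 without WT control 3 and WT Zn 3 together. The members' median was 0.053 with OE control 1 left out, 0.033 without OE Zn 3, 0.092 without WT Zn 3 and 0.101 without WT control 3. It was 0.001 without WT control 3 and WT Zn 3 together. It was larger without other libraries, at 0.432 when OE control 2 was left out, 0.387 for OE Zn 2 and 0.377 for WT Zn 1. Without WT control 1 and 2, with WT control 3 as the only WT control library, it was 0.166. Over the 12 libraries left out in turn the median thus ran from 0.033 to 0.432.

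At the ends of the order of ratios with 0.5 CPM added, Potri.003G111500.v3.0 had a ratio of control to Zn of 4.72 in OE and 9.86 in WT. Potri.014G043000.v3.0 had 4.53 in OE and 8.10 in WT, and Potri.014G134200.v3.0 had 4.63 in OE and 7.98 in WT. At the other end, with the larger ratio in OE, were Potri.006G006600.v3.0, with 8.97 in OE and 5.37 in WT, Potri.008G136200.v3.0 and Potri.016G132100.v3.0. For Potri.016G132100.v3.0 the added constant made this difference, since its ratios without it, given above, were nearly equal. Potri.006G006600.v3.0 had 0.218, 0.252 and 0.206 CPM on Zn, against 7.45, 6.79 and 3.77 CPM on control medium in OE, and 0.285, 0.548 and 0.25 CPM on Zn, against 5.15, 3.39 and 3.83 CPM on control medium in WT.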

How the data were processed

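Root mRNA libraries were made with a TruSeq kit, per the labels' protocols. The submitters' processing notes name TopHat2 2.1.1 and HTSeq 0.6.0. The deposited files give each gene a whole-number count, treated as an estimated count of the authors, an FPKM value and a normalized signal. The authors' FPKM served for levels between genes, and the deposited signal only as an alternative.

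CPM used library sizes after TMM scaling (trimmed mean of M-values). Genes passing filterByExpr (25871) entered 1 quasi-likelihood fit of 4 group means (R 4.3.3, edgeR 4.0.16, robust, 8 residual degrees of freedom), with Benjamini-Hochberg adjustment over all of them and a threshold of 0.05. All 42 members passed the filter, which was applied to all 12 libraries together. SEs were the size of the log2 fold change over the root of its F value. The biological coefficient of variation was 14.2%. Replicate pairs differed beyond sampling noise (chi-square per degree of freedom 5.52 to 31.5), so none was counted as a duplicate. DESeq2 1.42.0, limma-voom (limma 3.58.1), other scalings, filters and pseudocounts, and leaving out libraries were alternatives.

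The members, lists and rules were chosen with earlier results of these data known. Named members are the 10 most abundant on control medium, the 10 with the largest ratio in the genotype where it is smaller, the 3 on each side of the ratio threshold, the 3 with the smallest p per genotype comparison, those apart between genotypes in both media, those within 50 kb of each other and the 3 at each end of the difference between genotypes. Genes that failed only the separation, and neighbours of members, were named after their values were seen. Gene lists and root markers defined by words in gene descriptions, and promoter motifs, could not be filled because no table pairs the IDs with names or sequences.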

Additional observations from a re-analysis of the deposited data

How the results depend on the processing

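The rule gave 27 genes with 1 CPM added in place of 0.5 and 27 with a mean of at least 5 CPM, 62 with 0.1 CPM added, and 35 to 53 when 1 library was left out. The number of members called between the genotypes was 0 under each alternative tried, leaving out libraries included, except 1 by DESeq2 for the average over media. With only the Zn libraries in the fit, the count between the genotypes covers 32 of the 42 members. Leaving out 1 library kept 41 to 42 members called lower on Zn in each genotype. The choice of the members fixes these counts too, and nothing is read from them. For Potri.003G111500.v3.0 the averaged log2 fold change, OE against WT, was 0.09 without OE Zn 2, against -0.06 with all libraries, and ran from -0.2 to 0.09 over the libraries left out in turn, with no call. The cause of these shifts was not tested. No paired analysis was possible because the labels carry no replicate numbers, so libraries were numbered in order of deposit. On Zn, levels near the floor of 3 counts limit the precision of the weakest members.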
